A study of Mus musculus with 6 samples.

Results

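The chemokine ligand genes encode small, mostly secreted proteins of the CC, CXC, CX3C and XC families, named for the spacing of their first cysteines. They were chosen by name, with earlier results of these data known. The rule took every gene whose probe accession mapped to a RefSeq symbol that starts with Ccl, Cxcl, Cx3cl or Xcl followed by a number. Pseudogenes were left out. This gave 36 genes, read by 43 probes, of 20018 genes with a RefSeq symbol. RefSeq lists 39 such symbols and 5 pseudogenes besides, and Ccl21c, Ccl21d and Ccl27b were not analysed here because no probe mapped to them.

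Chemokines form gradients on cell surfaces and matrix and draw in leukocytes that carry the matching G protein-coupled receptors. Some are made constantly and place cells within tissues, while others are switched on by cytokines such as interleukin 1 and tumour necrosis factor through NF-kappaB, or by interferons. In injured skeletal muscle, CC ligands bring in monocytes and CXC ligands bring in neutrophils, and fibroblasts, macrophages, endothelial cells and muscle cells can all make them.

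Total RNA of 6 mouse cultures was measured on 6 1-colour arrays, with 2 arrays for each of 3 groups. WT MDSC are muscle-derived stem cells of 5 week old male wild-type mice, taken as the slowest adhering fraction of hindlimb muscle cells (preplate 6) and used at passage 1, with 2 isolations. Mstn-null MDSC were made the same way, also in 2 isolations, from mice of the same age and sex labelled null for Mstn, the gene of the muscle growth inhibitor myostatin; the allele is not given in the sources used here, nor how many animals went into an isolation. W4 ESC is 1 established mouse embryonic stem cell line, taken at passages 12 and 15, so its arrays do not show how lines differ. No culture was treated. The ESC were grown on inactivated embryonic fibroblasts, which a short plating on gelatin was meant to remove, although their description calls the colonies feeder free. Replicates 1 and 2 below are isolations 1 and 2 of MDSC and passages 12 and 15 of ESC.

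Of the 59305 spots on an array that were not controls, the scanner software flagged 53.3% to 64.6% as well above background and none as saturated. Levels are log2 of the signal minus the log2 of that array's 75th percentile, so 0 is that percentile, and levels of different genes are not compared because probes differ. The number of arrays limits the precision. The Mstn probe read -4.90 and -6.71 on the WT arrays, -7.23 and -6.85 on the ESC arrays and -3.06 and -2.47 on those labelled Mstn-null, the only ones where it was well above background. This goes against the label unless the probe lies outside the deleted part, which cannot be told here, so directions between the genotypes below are those of the arrays labelled Mstn-null. All 10 genes of the embryonic stem cell list, such as Pou5f1 and Sox2, were well above background on each ESC array, and 9 were lower in MDSC, while the Nanog probe was higher there. Of the 8 genes of the myogenic list, 6 or 7 were well above background on each MDSC array, but Pax7 only on WT replicate 1 (and ESC replicate 1) and Myf5 on none. On ESC replicates 1 and 2, 5 and 4 genes of the myogenic list were well above background. Of the embryonic stem cell list, 5 or 6 genes were so on each MDSC array. The WT arrays lay on 1 slide and the other 4 arrays on another, so slide and group cannot be told apart for WT.

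The test was run on genes that were well above background on both arrays of some group, which 24 of the 36 ligand genes were. Of these, 15 were well above background on all 6 arrays, 23 on all 4 MDSC arrays, and 5 (Ccl4, Ccl6, Ccl11, Ccl12 and Cxcl3) on every MDSC array but no ESC array. The other 12 were not tested: Ccl1, Ccl20, Ccl22, Ccl24, Ccl26, Cxcl13, Cxcl15, Cxcl17 and Xcl1 were at background on all 6 arrays, and the brightest probe of Ccl21a was well above it on 3 arrays, that of Cxcl9 on 2 and that of Ccl28 on 1. A gene that passed this filter only through MDSC had to be dim in ESC, so the 24 do not stand for all 36.

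Against ESC, MDSC carried more RNA of most ligands that could be tested. With limma's moderated test, adjusted by Benjamini-Hochberg over all 25055 genes tested (adjusted p under 0.05), 19 of the 24 ligands were higher in MDSC, none was lower and 5 did not pass. Over all genes tested, 28.3% were called higher and 31.4% lower, 59.6% in all. The median log2 difference was 5.42 over the 24 ligands and -0.03 over all genes. It was 3.69 over the ligands tested without ESC replicate 2, and 1.61 over all 36 ligands with no filter on dim genes (0.18 over all genes). Among the 15 ligands well above background on all 6 arrays, 11 were called higher and the median was 2.09 when the fit was limited to such genes. In 18 of the 24, all 4 MDSC arrays lay above both ESC arrays, as they did for 33.0% of all genes.

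**Figure D1:**
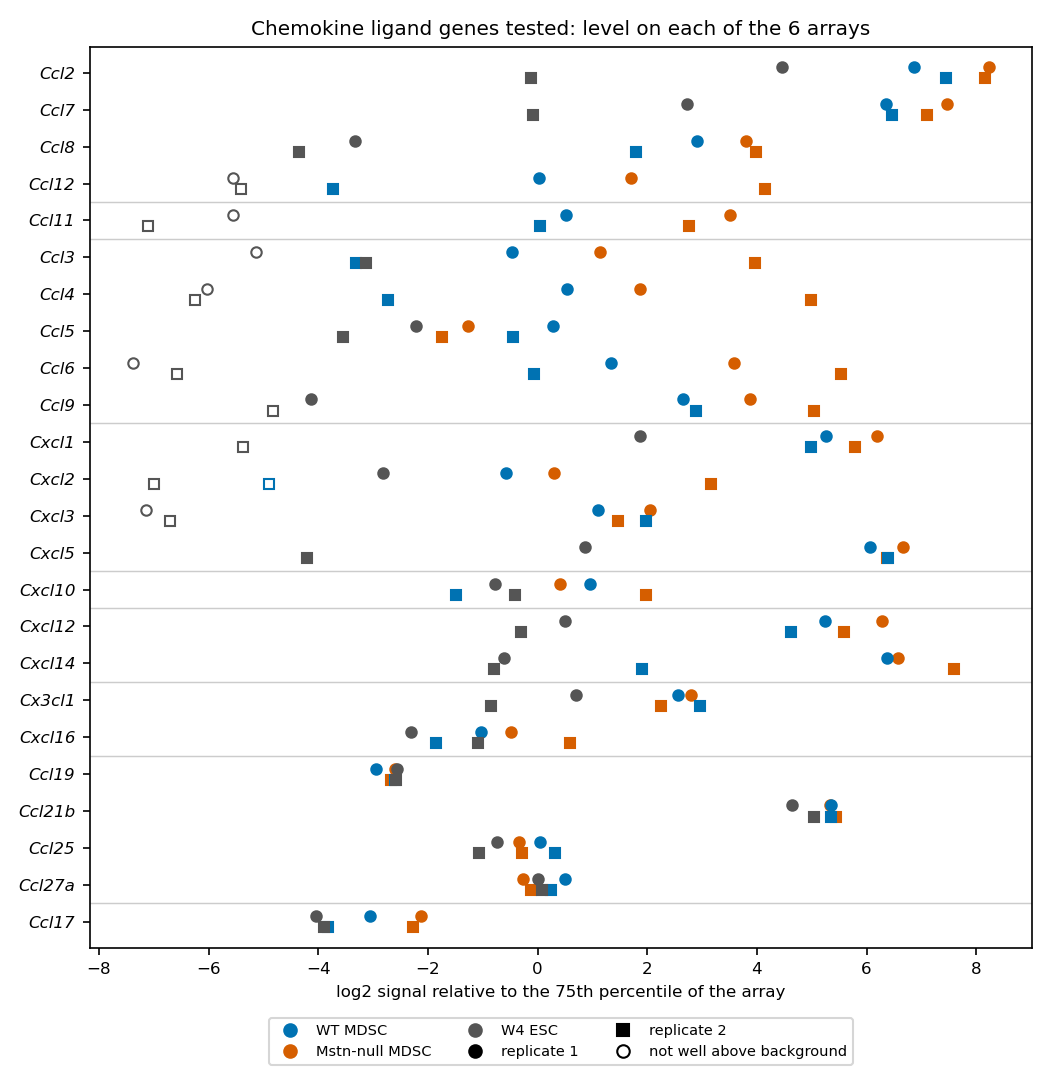
Level of each of the 24 tested chemokine ligand genes (log2 signal relative to the array's 75th percentile, x axis) on every array, with genes grouped by role between the grey lines; colours are groups, circles replicate 1, squares replicate 2, and open symbols were not well above background. Cxcl3 is tight in MDSC and at background in ESC, whereas Ccl12, Ccl3 and Ccl4 spread over more than 7 log2 units among the MDSC arrays.

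Markers of other cell types moved with this comparison. Of the fibroblast and feeder list (12 genes such as Col1a1, Dcn and Pdgfra), 11 were higher in MDSC and none lower; its signals, summed as multiples of the 75th percentile, were 1133 to 2374 in MDSC and 103 to 174 in ESC. Of the myeloid list (12 genes, 11 with a probe, 10 tested), 9 were higher and none lower, with summed signals of 50.7 to 317 in MDSC and 11.8 to 17.8 in ESC; Ptprc, the pan-leukocyte marker CD45, was well above background on each MDSC array but no ESC array, and Cd163 on none. With limma, 0 of 3 lymphoid genes tested passed (0 at an unadjusted p under 0.05), and Cd3g, Ms4a1 and Klrb1c were at background on all arrays. Of the granulocyte and mast cell genes 0 of 2 tested passed (1, S100a8, at an unadjusted p under 0.05). Csf3r was well above background on all 6 arrays (4.76 to 6.59), S100a8 on all but ESC replicate 2, and S100a9 on Mstn-null replicate 1 only (-1.31). Cpa3, Cma1 and Fcer1a were at background on all arrays. The myogenic list had 4 of 6 tested genes higher and none lower (summed signals 4.66 to 85.4 in MDSC and 1.64 to 3.14 in ESC). The endothelial list had 1 of 6 higher (Cdh5) and 3 lower (Pecam1, Vwf and Egfl7), with summed signals of 23.1 to 24.9 in MDSC and 35.7 to 37.0 in ESC. In RNA from whole cultures, more cells of a type and more RNA per cell cannot be told apart, and the part of these cell types in the ligands' difference was not tested.

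The monocyte-attracting CC ligands Ccl2, Ccl7, Ccl8 and Ccl12, the mouse MCP proteins, were all higher in MDSC. Of these, Ccl2, Ccl7 and Ccl12 act mainly through Ccr2. Ccl2 (MCP-1) read 6.86 and 7.46 in WT MDSC, 8.24 and 8.15 in Mstn-null MDSC, and 4.46 and -0.12 in ESC. The MDSC arrays lay within 1.37 log2 units of each other and above both ESC arrays, which themselves differed 23.9-fold. The log2 difference was 5.51 ± 1.27 (SE; adjusted p = 0.0166), and 3.22 (adjusted p = 0.0058) without ESC replicate 2. Ccl7 (MCP-3) had the same shape, with 6.35 and 6.46 in WT MDSC, 7.46 and 7.11 in Mstn-null MDSC and 2.73 and -0.08 in ESC, a difference of 5.53 ± 0.79 (adjusted p = 0.00375).

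Ccl8 (MCP-2) was low but well above background in ESC. Its levels were 2.91 and 1.80 in WT MDSC, 3.80 and 3.99 in Mstn-null MDSC and -3.33 and -4.35 in ESC, a difference of 6.96 ± 0.44 (adjusted p = 0.000467). Ccl12 (MCP-5) was the least even of the group, at 0.03 and -3.73 in WT MDSC, 1.70 and 4.16 in Mstn-null MDSC, and -5.56 and -5.41 in ESC. Its lowest MDSC array was 236-fold below its highest, yet each lay above both ESC arrays, where the probe was not well above background. Where every array of the dimmer group was at background, a bound is given, the bright group's mean against the dim group's detection level (the higher, per array, of the lowest signal well above background and the probe's own). For Ccl12 MDSC were at least 49.5-fold higher (fitted difference 6.03 ± 1.23, adjusted p = 0.0115); leaving out ESC replicate 1 gave an adjusted p of 0.0644, and leaving out ESC replicate 2 gave 0.0647.

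Ccl11 (eotaxin), which draws in eosinophils through Ccr3, read 0.52 and 0.04 in WT MDSC and 3.50 and 2.76 in Mstn-null MDSC, and was not well above background in ESC (-5.55 and -7.10). MDSC were at least 111-fold higher (fitted difference 8.03 ± 0.50, adjusted p = 0.000469). The other eotaxins, Ccl24 and Ccl26, were at background throughout.

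All 5 ligands of the macrophage inflammatory group, Ccl3, Ccl4, Ccl5, Ccl6 and Ccl9, were higher in MDSC. Ccl6, a mouse CC ligand abundant in myeloid cells, read 1.34 and -0.07 in WT MDSC, 3.58 and 5.53 in Mstn-null MDSC, and -7.38 and -6.58, at background, in ESC. MDSC were at least 206-fold higher (fitted difference 9.58 ± 0.71, adjusted p = 0.00067). Its close relative Ccl9 (MIP-1 gamma) read 2.65 and 2.90 in WT MDSC, 3.88 and 5.03 in Mstn-null MDSC and -4.13 and -4.83 in ESC, the second at background. With 1 of the ESC arrays measuring it, its fitted difference was 8.10 ± 0.40 (adjusted p = 0.000268). Both genes thus had all MDSC arrays far above both ESC arrays.

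Ccl3 and Ccl4 (MIP-1 alpha and beta), which draw in macrophages and T cells, were spread widely among the MDSC arrays. Ccl4 read 0.54 and -2.73 in WT MDSC, 1.87 and 4.98 in Mstn-null MDSC and -6.02 and -6.25, not well above background, in ESC. MDSC were at least 76.4-fold higher (fitted difference 7.30 ± 1.24, adjusted p = 0.00645). Ccl3 read -0.47 and -3.31 in WT MDSC, 1.14 and 3.96 in Mstn-null MDSC and -5.13, at background, and -3.12 in ESC. WT replicate 2 fell below ESC replicate 2, so the groups overlapped, and the difference was 4.46 ± 1.23 (adjusted p = 0.0291). That call was lost without WT replicate 1 (adjusted p = 0.058), Mstn-null replicate 2 (0.0576), ESC replicate 1 (0.156) or ESC replicate 2 (0.0646). Ccl5 (RANTES), which draws in T cells and monocytes, was the only member of the group with its higher MDSC levels in WT, at 0.28 and -0.45 there, -1.27 and -1.74 in Mstn-null MDSC and -2.21 and -3.55 in ESC. Its difference between MDSC and ESC was 2.09 ± 0.45 (adjusted p = 0.0139; 0.0521 without ESC replicate 2, where the difference was 1.42).

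Of the 4 neutrophil-attracting CXC ligands tested, which act through Cxcr2, 3 were higher in MDSC, and Cxcl3 and Cxcl5 varied by at most 1.95-fold among the MDSC arrays. Cxcl3, a GRO-type ligand, read 1.10 and 1.97 in WT MDSC and 2.06 and 1.47 in Mstn-null MDSC, and -7.14 and -6.71 in ESC, where it was not well above background. MDSC were at least 106.7-fold higher (fitted difference 8.57 ± 0.34, adjusted p = 0.000167). Cxcl5 (LIX) lay between 6.06 and 6.67 on the 4 MDSC arrays (6.06 and 6.38 in WT, 6.67 and 6.37 in Mstn-null) and at 0.87 and -4.21 in ESC. Its difference was 8.04 ± 1.40 (adjusted p = 0.00693), and its ESC arrays differed 33.9-fold.

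Cxcl1 (KC) read 5.27 and 4.99 in WT MDSC, 6.18 and 5.79 in Mstn-null MDSC and 1.87 and -5.37 in ESC, where replicate 2 was at background and replicate 1 at least 108-fold above its detection level. The difference was 7.31 ± 1.99 (adjusted p = 0.0277). It was 3.69 (adjusted p = 0.00384) without ESC replicate 2, and the adjusted p was 0.0623 to 0.0687 when any of the 4 MDSC arrays was left out. Cxcl2 (MIP-2), the neighbour of Cxcl1, did not pass. It read -0.57 and -4.90 in WT MDSC, the second not well above background, 0.31 and 3.16 in Mstn-null MDSC, and -2.81 and -7.00 in ESC, the second again not well above background. WT replicate 2 lay below ESC replicate 1, and the difference of 4.41 had a 95% interval of -0.28 to 9.10 (adjusted p = 0.0902). Cxcl15 (lungkine) was at background throughout.

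These CXC genes lie side by side on chromosome 5 in the order Cxcl5, Ppbp, Pf4, Cxcl3, Cxcl15, Cxcl1, Cxcl2, with no other coding gene between them in the RefSeq annotation. Ppbp and Pf4, chemokines of platelets whose symbols lie outside the naming rule, were also higher in MDSC, by 5.64 ± 0.45 (adjusted p = 0.000812) and 6.18 ± 1.33 (adjusted p = 0.0133). Pf4 was at background on ESC replicate 1 (-5.62). The promoters of Cxcl1, Cxcl2, Cxcl3 and Cxcl15 are shown because these neighbours ranged from well above background in every MDSC culture (Cxcl1, Cxcl3) to background on all arrays (Cxcl15). Each line gives the 250 bases before the gene's start (RefSeq, GRCm38.p6), 5′ to 3′ on the gene's strand, with matches to the NF-kappaB consensus in capitals.
Cxcl3, chr5:90785851-90786100, plus strand: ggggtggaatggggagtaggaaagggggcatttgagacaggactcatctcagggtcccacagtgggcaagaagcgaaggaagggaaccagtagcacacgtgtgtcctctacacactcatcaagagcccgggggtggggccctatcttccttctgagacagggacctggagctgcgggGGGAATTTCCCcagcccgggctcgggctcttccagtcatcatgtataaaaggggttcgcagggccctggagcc
Cxcl15, chr5:90794284-90794533, plus strand: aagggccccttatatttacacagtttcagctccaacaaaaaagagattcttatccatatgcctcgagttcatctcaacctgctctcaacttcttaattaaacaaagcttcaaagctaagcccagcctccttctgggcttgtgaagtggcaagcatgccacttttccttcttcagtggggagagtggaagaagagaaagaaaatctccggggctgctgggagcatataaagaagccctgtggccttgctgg
Cxcl1, chr5:90890995-90891244, plus strand: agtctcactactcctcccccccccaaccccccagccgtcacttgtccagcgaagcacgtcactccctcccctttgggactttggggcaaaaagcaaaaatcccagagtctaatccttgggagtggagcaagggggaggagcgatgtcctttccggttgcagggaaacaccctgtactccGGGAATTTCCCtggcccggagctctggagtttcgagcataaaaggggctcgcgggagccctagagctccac
Cxcl2, chr5:90903649-90903898, plus strand: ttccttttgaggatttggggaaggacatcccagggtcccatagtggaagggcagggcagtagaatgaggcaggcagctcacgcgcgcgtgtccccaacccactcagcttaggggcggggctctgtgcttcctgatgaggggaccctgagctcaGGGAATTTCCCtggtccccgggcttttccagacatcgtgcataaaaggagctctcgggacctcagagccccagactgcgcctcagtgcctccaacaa
Cxcl1, Cxcl2 and Cxcl3 carried the same run of 11 bases, GGGAATTTCCC, starting 71, 97 and 73 bases before the gene's start. In Cxcl15 no match to the NF-kappaB consensus was found in this window. A RefSeq promoter was given for 26 of the 36 ligand genes, and none of Ccl2, Ccl7, Ccl11 or Cxcl5 was among them. On either strand, 7 of the 26 (26.9%) held an NF-kappaB match, against 8.23% of 27025 genes with a promoter. The interferon-stimulated response core was found in 3 (11.5%, against 3.46%), the AP-1 site TGANTCA in 3 (7.82% of all genes) and the TATA box TATAAA in 9 (34.6%, against 14.3%). Ccl1 and Ccl20, at background on every array, were among the 7 with an NF-kappaB match, with Ccl9, Cxcl1, Cxcl2, Cxcl3 and Cxcl10. Neighbouring ligands share ancestry and are not independent, and a match describes letters, not binding.

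The CC ligands lie in a similar way on chromosome 11. Ccl2, Ccl7, Ccl11, Ccl12 and Ccl8 follow each other with no other coding gene between them, and all were higher in MDSC, while the next gene, Ccl1, was at background on all 6 arrays. After 25 other coding genes come Ccl5, Ccl9, Ccl6, Ccl3 and Ccl4, also adjacent and all higher.

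**Figure D2:**
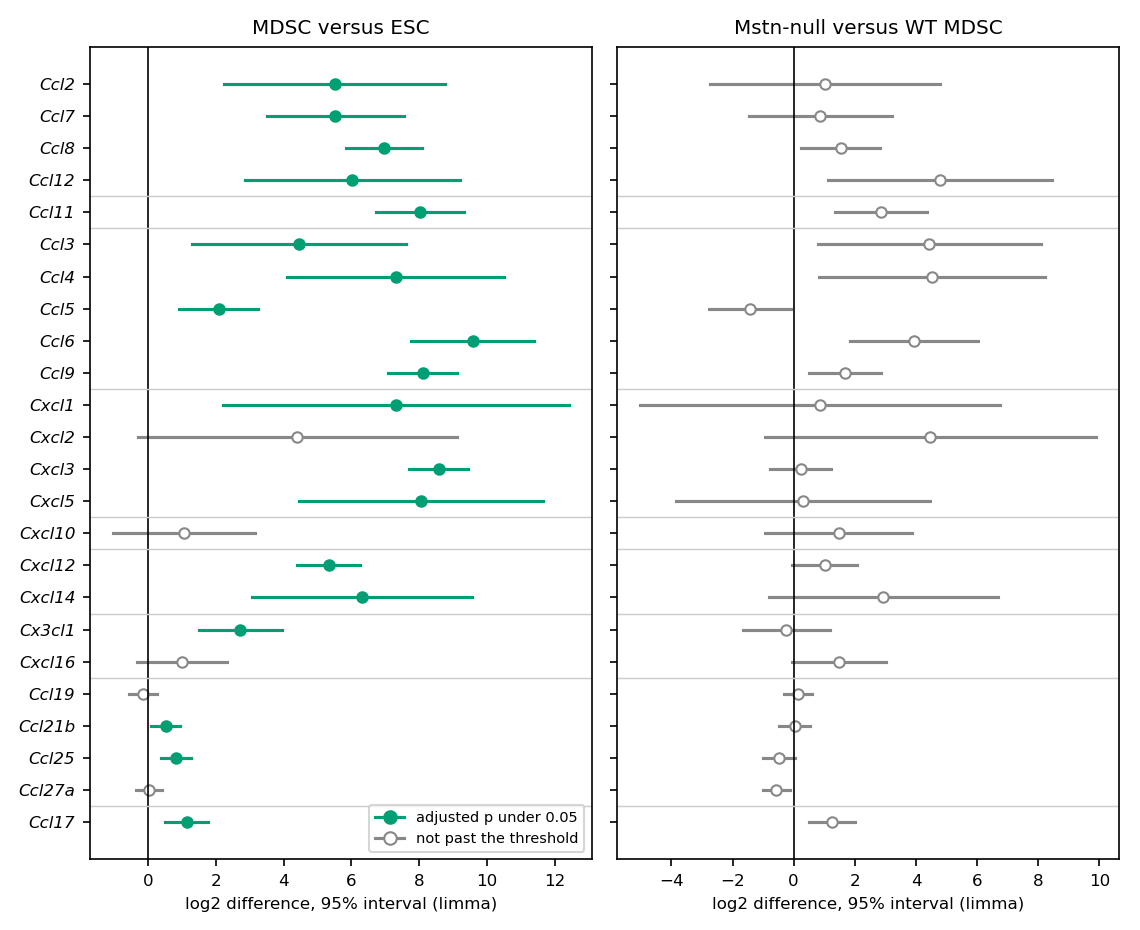
Fitted log2 difference (x axis) with its 95% interval for the 24 tested ligands in MDSC versus ESC (left) and Mstn-null versus WT MDSC (right), from limma; filled green points passed an adjusted p of 0.05. On the left 19 intervals lie above 0 and are filled, and on the right no point is filled.

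Both homeostatic CXC ligands that could be tested were higher. Cxcl12 (SDF-1), the ligand of Cxcr4 that holds stem cells and leukocytes in their niches, read 5.24 and 4.62 in WT MDSC, 6.29 and 5.59 in Mstn-null MDSC and 0.50 and -0.31 in ESC. Its difference was 5.34 ± 0.36 (adjusted p = 0.000554), and a second probe gave 6.56 (adjusted p = 0.00041 in a fit over all probes). Cxcl14 (BRAK) read 6.38 and 1.91 in WT MDSC, 6.57 and 7.59 in Mstn-null MDSC and -0.62 and -0.80 in ESC, with WT replicate 2 apart from the other MDSC arrays. Its difference was 6.32 ± 1.26 (adjusted p = 0.0106), and the call was lost without ESC replicate 1 (0.0574) or ESC replicate 2 (0.0647). Cxcl13 and Cxcl17 were at background throughout.

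Of the ligands that are made as membrane proteins, Cx3cl1 (fractalkine) was higher in MDSC and Cxcl16 did not pass. Cx3cl1 read 2.57 and 2.96 in WT MDSC, 2.80 and 2.25 in Mstn-null MDSC and 0.69 and -0.85 in ESC, a difference of 2.72 ± 0.48 (adjusted p = 0.00702). Cxcl16 read -1.02 and -1.84 in WT MDSC, -0.49 and 0.59 in Mstn-null MDSC and -2.30 and -1.08 in ESC. Its groups overlapped, and the difference was 1.00 with a 95% interval of -0.32 to 2.32 (adjusted p = 0.15). The interferon-induced Cxcl10 (IP-10), a Cxcr3 ligand, overlapped as well, at 0.96 and -1.50 in WT MDSC, 0.42 and 1.99 in Mstn-null MDSC and -0.78 and -0.41 in ESC (difference 1.06, 95% interval -1.03 to 3.15, adjusted p = 0.303). Its relative Cxcl9 was not tested. Its brighter probe was well above background on WT replicate 1 (-3.69) and Mstn-null replicate 1 (-4.24), and its other probe on ESC replicate 1 alone (-5.18).

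Of the 7 homing ligands of lymphoid organs, gut and skin, 4 were tested, and Ccl20, Ccl21a and Ccl28 were not. Ccl19, a Ccr7 ligand, lay between -2.94 and -2.56 on all 6 arrays, with a difference of -0.13 (95% interval -0.54 to 0.28, adjusted p = 0.504). Ccl27a, a skin ligand of Ccr10, read 0.50 and 0.25 in WT MDSC, -0.26 and -0.12 in Mstn-null MDSC and 0.01 and 0.08 in ESC, a difference of 0.05 (95% interval -0.34 to 0.43, adjusted p = 0.802). Both intervals stay within 0.54 log2 units of 0.

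Ccl21b, the other Ccr7 ligand, read 5.36 and 5.35 in WT MDSC, 5.33 and 5.44 in Mstn-null MDSC and 4.64 and 5.04 in ESC. The small difference of 0.53 ± 0.17 passed (adjusted p = 0.0457), but not when any array other than ESC replicate 2 was left out (adjusted p 0.0916 to 0.155; 0.33 without ESC replicate 1), nor with median centring (0.0773) or without the filter on dim genes (0.0732). Ccl21a, Ccl21b and the unprobed Ccl21c and Ccl21d are near-identical copies, so which copy the Ccl21b probe read is uncertain. Ccl25, the gut and thymus ligand of Ccr9, depended on the probe. Its brighter probe read 0.04 and 0.31 in WT MDSC, -0.34 and -0.28 in Mstn-null MDSC and -0.73 and -1.07 in ESC, a difference of 0.83 ± 0.17 (adjusted p = 0.0123; 0.67 and 0.0574 without ESC replicate 2). Its dimmer probe was well above background on the ESC arrays only (-3.55 and -2.37) and lower in MDSC by -2.79 (adjusted p = 0.0047 in the fit over all probes), and the mean of the probes gave -0.98 (adjusted p = 0.0197), so no direction is given for the gene, although its brighter probe counts among the 19. Of the 3 probes of Ccl27a, 1 was higher in MDSC (0.75, adjusted p = 0.0461 in the fit over all probes) and the others differed by 0.05 and -0.06.

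Among ligands linked to T cells and dendritic cells, Ccl17 (TARC), a Ccr4 ligand, was the sole one tested. It read -3.06 and -3.83 in WT MDSC, -2.12 and -2.28 in Mstn-null MDSC and -4.04 and -3.89 in ESC, so that WT replicate 2 was close to the ESC arrays. The difference was 1.14 ± 0.25 (adjusted p = 0.0145; 0.0743 without ESC replicate 1 and 0.0591 without ESC replicate 2). Ccl1, Ccl22 and Xcl1 were at background throughout.

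Each genotype was also set against ESC on its own. These comparisons share the ESC arrays, so the counts are given side by side. WT MDSC had 14 of 24 ligands higher and none lower, where 27.1% of all genes were called higher and 25.9% lower (53.1% in all), and Mstn-null MDSC had 17 higher and none lower, where 23.3% were called higher and 30.8% lower (54.2% in all). The median log2 difference over the 24 ligands was 4.23 for WT (2.50 with normexp, 2.62 without WT replicate 1) and 6.33 for Mstn-null MDSC. Over the 15 ligands well above background on all 6 arrays the medians were 2.80 for WT and 1.80 for Mstn-null MDSC. These medians fall on different genes (Ccl5 and Cxcl10), so they do not order the genotypes. Over the same 15 ligands, the median difference of Mstn-null versus WT MDSC was 0.88. Cxcl2 passed in Mstn-null MDSC (6.64 ± 2.11, adjusted p = 0.0472), but not without Mstn-null replicate 1 (0.0734), Mstn-null replicate 2 (0.186) or ESC replicate 2 (0.187), and its difference in WT was 2.17 (adjusted p = 0.415). Ccl12 differed from ESC by 8.41 ± 1.43 in Mstn-null MDSC (at least 259-fold, adjusted p = 0.0074) and by 3.64 ± 1.43 in WT (adjusted p = 0.0837; 5.52 and 0.0236 without WT replicate 2). Ccl17 differed by 1.77 ± 0.29 in Mstn-null MDSC (adjusted p = 0.00685) and by 0.52 ± 0.29 in WT (adjusted p = 0.185; 0.90 and 0.0381 without WT replicate 2). Ccl3 differed by 6.67 ± 1.42 in Mstn-null MDSC (adjusted p = 0.0146; 0.0629 without Mstn-null replicate 2 and 0.0712 without ESC replicate 1) and by 2.24 ± 1.42 in WT (0.232). Cxcl1 differed by 7.74 ± 2.29 in Mstn-null MDSC (0.0389; 4.12 and 0.0044 without ESC replicate 2, and 0.0684 to 0.124 without any 1 MDSC array) and by 6.88 ± 2.29 in WT (0.0552; 3.26 and 0.00633 without ESC replicate 2, and 10.49 and 0.00128 without ESC replicate 1). Ccl5 had the reverse order, with 2.80 ± 0.52 in WT (0.0104; 0.0514 without WT replicate 1) and 1.38 ± 0.52 in Mstn-null MDSC (0.0776; 2.04 and 0.0288 without ESC replicate 1), and so did the brighter Ccl25 probe, with 1.08 ± 0.20 (0.0104) and 0.59 ± 0.20 (0.0573). A gene that passed in 1 genotype alone is not thereby different between them, and the direct test follows.

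Between the genotypes, no ligand passed. Of the 24, 0 had an adjusted p under 0.05 in Mstn-null versus WT MDSC, as 0 of all 25055 genes did (0%), and under each alternative run the ligand count stayed 0. At an unadjusted p under 0.05 there were 10 of 24 ligands (Ccl3, Ccl4, Ccl5, Ccl6, Ccl8, Ccl9, Ccl11, Ccl12, Ccl17 and Ccl27a), against 14.7% of all genes. Both arrays labelled Mstn-null lay above both WT arrays for 15 of the 24 ligands, where 16.6% of all genes did so, and below both for 3 (Ccl5, Ccl25 and Ccl27a), where 34.8% did so. The median difference was 1.14 over the ligands and -0.12 over all genes; with quantile normalization these were 1.26 and -0.05, with median centring 1.30 and 0.04, and with normexp 1.01 and -0.10. The smallest p an exact permutation test could reach with 2 arrays against 2 is 0.333. The WT arrays have a slide of their own, so slide and genotype cannot be told apart.

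The differences that were large were also uncertain. Ccl12 differed by 4.77 ± 1.43 (adjusted p = 0.228; 2.90 without WT replicate 2), Ccl4 by 4.52 ± 1.43 (0.253; 2.88 without WT replicate 2 and 2.97 without Mstn-null replicate 2) and Ccl3 by 4.44 ± 1.42 (0.257). Cxcl2 differed by 4.47 ± 2.11 (0.432; 2.31 without WT replicate 2), and Cxcl14 by 2.93 ± 1.46 (0.457; 0.70 without WT replicate 2). The differences with the smallest standard error for their size were those of Ccl11 (2.85 ± 0.58, adjusted p = 0.132), Ccl6 (3.92 ± 0.82, 0.136) and Ccl17 (1.25 ± 0.29, 0.159). In the other direction, Ccl5 differed by -1.42 ± 0.52 (0.318) and Ccl27a by -0.56 ± 0.17 (0.239). Close to 0 were Cxcl3 (0.23, 95% interval -0.77 to 1.23) and Cx3cl1 (-0.24, -1.65 to 1.17), whereas Cxcl5 (0.30, -3.85 to 4.46) and Cxcl1 (0.86, -5.03 to 6.75) had wide intervals in the shared model, whose spread includes that of the ESC arrays.

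The wide members varied between cultures of the same genotype as well. Mstn-null replicate 2 lay above replicate 1 by 3.11 for Ccl4, 2.86 for Cxcl2, 2.82 for Ccl3 and 2.46 for Ccl12, and WT replicate 1 lay above replicate 2 by 3.28, 4.32, 2.84 and 3.76 for the same genes, Cxcl2 being at background on WT replicate 2. In an order noticed after the values were seen, 9 of the 24 ligands (Ccl3, Ccl4, Ccl6, Ccl8, Ccl12, Cxcl2, Cxcl10, Cxcl14 and Cxcl16) were highest on Mstn-null replicate 2 and lowest on WT replicate 2 among the MDSC arrays, as 10.7% of all genes were. The summed signal of the myeloid list followed this order too. It was 317 on Mstn-null replicate 2, 109 on Mstn-null replicate 1, 68.3 on WT replicate 1 and 50.7 on WT replicate 2. On each, 10 of the list's 11 genes with a probe were well above background. Among them, Itgam did not follow the order, being lowest on Mstn-null replicate 2 (5.09) and highest on WT replicate 1 (5.50). None of the list's 10 tested genes passed between the genotypes, and their median difference was 3.52. The myogenic list went the other way, with summed signals of 85.4 and 14.1 in WT and 8.07 and 4.66 in Mstn-null MDSC. The part of these cell types in the ligands' spread was not tested.

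Other ligands varied little over the same 4 cultures. From the lowest to the highest MDSC array, Cxcl5 moved 1.53-fold, Cx3cl1 1.63-fold, Cxcl3 1.95-fold, Ccl7 2.15-fold, Cxcl1 2.29-fold and Ccl2 2.59-fold, while Ccl12 moved 236-fold, Ccl4 210-fold, Ccl3 154-fold and Cxcl2, at background on WT replicate 2, at least 230.4-fold. So neighbours in 1 cluster, such as Cxcl1 and Cxcl2 or Ccl7 and Ccl12, fell into opposite sets.

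**Figure D3:**
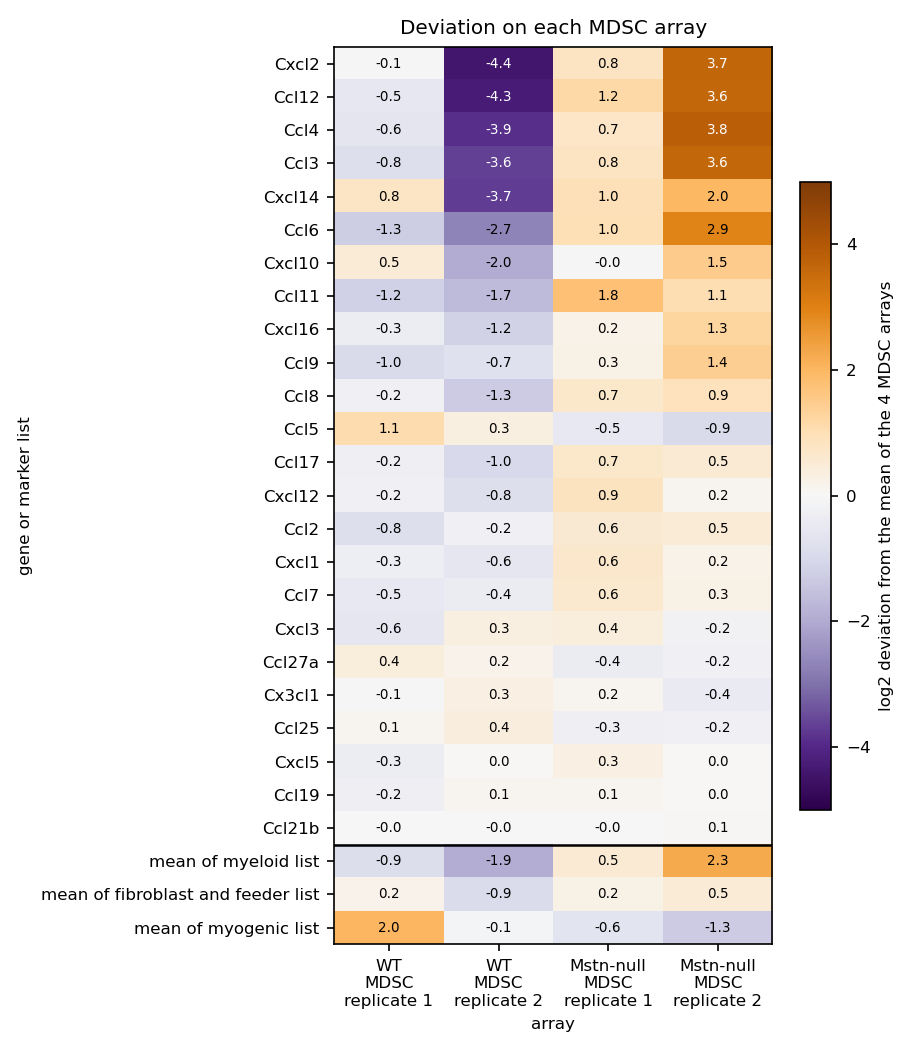
Deviation of each tested ligand (rows, sorted by range) from its mean over the 4 MDSC arrays (columns), in log2 units, with the same for the mean of 3 marker lists below the line. Ligands at the top are low on WT replicate 2 and high on Mstn-null replicate 2, as is the mean of the myeloid list (-1.94 and 2.26), while Cxcl5, Cxcl3 and Cx3cl1 lie close to 0 on every array.

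The ESC arrays also differed from each other, among others in Cxcl5, Cx3cl1, Ccl7, Cxcl1 and Ccl2, which varied little among the MDSC arrays. Of the ligands named above as varying most there, only Cxcl2 and Ccl3 differed over 2-fold between the ESC arrays. ESC replicate 1 was over 2-fold above replicate 2 for 9 of the 24 ligands (Ccl2, Ccl5, Ccl7, Ccl8, Ccl11, Cx3cl1, Cxcl1, Cxcl2 and Cxcl5), against 7.55% of all genes, and over 2-fold below it for Ccl3 and Cxcl16, against 3.42%. Ccl11 was not well above background on either array. The steps were 33.9-fold for Cxcl5, 23.9-fold for Ccl2 and 7.02-fold for Ccl7. Against replicate 2 at background they were at least 108-fold for Cxcl1 and at least 4.21-fold for Cxcl2, and Ccl3 was at background on replicate 1. The fibroblast and feeder list was also higher on replicate 1, with a mean level of 2.22 against 0.32 (2.22 against 0.89 without Lum). Of its 12 genes 10 were higher on replicate 1, and Postn and Lox were lower, with log2 differences of -0.75 and -0.66. Lum read 2.14 and, at background, -5.96, Dcn 2.96 and -2.05, and Pdgfra 1.01 and -3.11, whereas Col1a1, Fn1 and Thy1 differed by less than 0.5. The embryonic stem cell list had mean levels of 4.81 and 4.97. The part of remaining feeder cells in the ligands' ESC levels was not tested, and with 1 array for each passage the difference between them has no replicate.

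**Figure D4:**
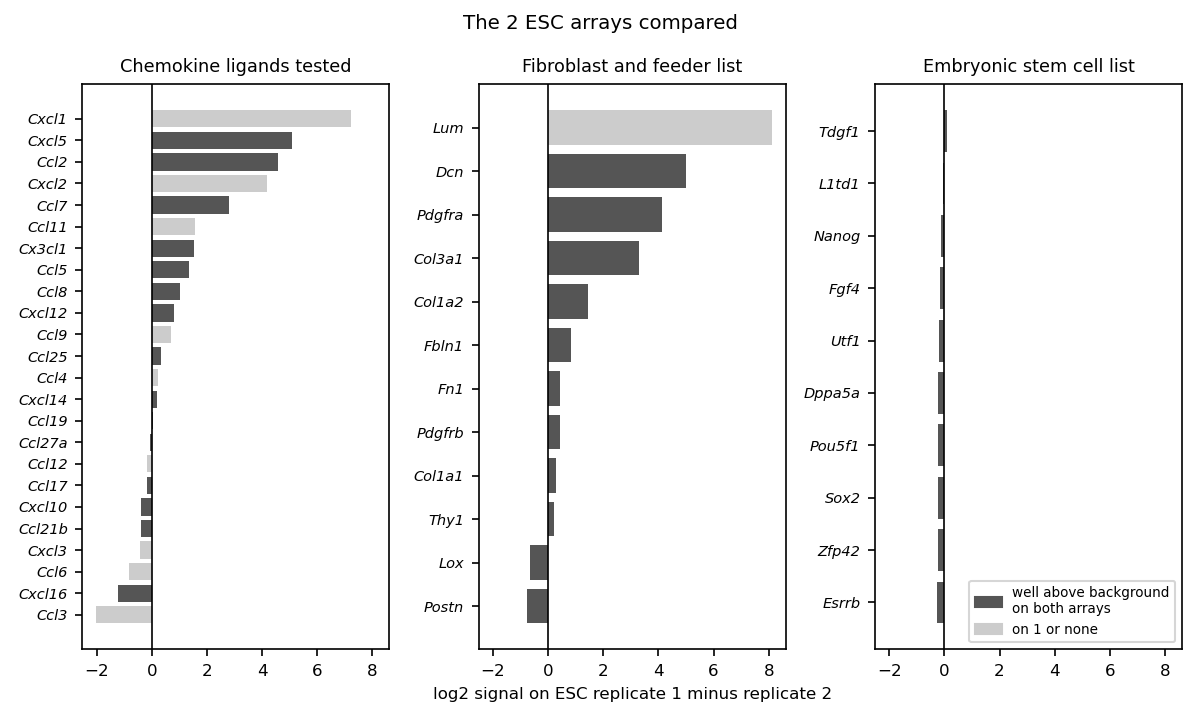
Level on ESC replicate 1 minus replicate 2 (log2, x axis) for the 24 tested ligands, the 12 genes of the fibroblast and feeder list and the 10 of the embryonic stem cell list; pale bars mark genes at background on at least 1 of the arrays. Cxcl1, Cxcl5 and Ccl2 among the ligands and Lum, Dcn and Pdgfra among the fibroblast genes are higher on replicate 1, while the stem cell genes lie near 0.

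The receptors for these ligands were mostly dim. Of 19 chemokine receptor genes, 9 could be tested, 4 were higher in MDSC than in ESC (among them Ccr9, Cxcr3 and Cx3cr1) and none was lower. Over all genes tested, 28.3% were called higher and 31.4% lower. Ccr9, Cxcr3 and Cx3cr1 were each at background on both ESC arrays and on some MDSC arrays. They passed the filter only through an MDSC group, so they had to be dim in ESC. Ccr9 was at background on both Mstn-null arrays and at least 2.42-fold higher in WT MDSC than in ESC. Cxcr3 was at background on both WT arrays. In Mstn-null MDSC it was at least 3.225-fold higher than in ESC, and Cx3cr1 at least 93.9-fold. Cxcr2, the receptor of Cxcl1, Cxcl2, Cxcl3 and Cxcl5, was at background on all 6 arrays. Ccr2, the receptor of Ccl2, Ccl7 and Ccl12, was well above background on Mstn-null replicate 2 only (-0.28). Cxcr4, the receptor of Cxcl12, was higher in Mstn-null MDSC than in ESC (2.14 ± 0.55, adjusted p = 0.0257), whereas WT MDSC, at background on both arrays, differed from ESC by -0.90 (adjusted p = 0.217). The pooled difference was 0.62 (adjusted p = 0.304), and between the genotypes it was 3.03 ± 0.55 (adjusted p = 0.112). Cx3cr1, the receptor of Cx3cl1, followed the order of the myeloid list among the MDSC arrays, at 3.03, -0.11, -1.92 and -5.80 for Mstn-null replicates 2 and 1 and WT replicates 1 and 2, the last at background. Of 5 atypical receptors, which do not signal through G proteins, 3 of 4 tested were higher, Ackr3 by 4.71 ± 0.33 (adjusted p = 0.000576), Ackr4 by 3.03 ± 0.86 (0.0319) and Ccrl2 by 3.21 ± 0.87 (0.0273). Ackr4 (-6.65) and Ccrl2 (-4.61) were at background on ESC replicate 2.

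Genes linked to the induction of chemokines, a list that also holds inhibitors such as Nfkbia, were mostly higher in MDSC too. Of 23 such genes 19 were tested, 14 were higher and 2 lower, where 28.3% of all genes were called higher and 31.4% lower. Il6, a cytokine often induced together with Ccl2 and Cxcl1, was higher by 7.36 ± 1.08 (adjusted p = 0.00412), the interleukin 1 receptor gene Il1r1 by 5.58 ± 1.13 (0.0112) and the tumour necrosis factor receptor gene Tnfrsf1a by 4.47 ± 0.43 (0.00129). Tnf was at least 28.2-fold higher (0.0197), and Il1b did not pass (4.94 ± 1.80, 0.0648). The NF-kappaB subunit gene Rela was higher by 1.48 ± 0.14 (0.00115) and its inhibitor Nfkbia by 1.64 ± 0.48 (0.035), whereas Bcl3 (-0.78 ± 0.23, 0.0327) and the interferon regulator Irf1 (-0.73 ± 0.20, 0.0283) were lower. Ifng was at background on all 6 arrays. Of 12 genes for cleavage or surface binding of chemokines, 9 were higher, among them the metalloproteases Mmp2 (3.57 ± 0.48, 0.00326) and Mmp14 (3.67 ± 0.16, 0.000207), the fractalkine sheddase Adam10 (2.14 ± 0.15, 0.000624) and the syndecan Sdc2 (2.98 ± 0.18, 0.000427). Dpp4, which trims the start of several chemokines including Cxcl12, was lower by -2.69 ± 0.48 (0.00748). None of these lists held a gene that passed between the genotypes.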

How the data were processed

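Cy3-labelled RNA of 6 cultures was hybridised to 1-colour Agilent arrays, per the labels' protocols. The deposited intensities came from the authors' scans, read with Agilent Feature Extraction (10.7.1.1 per the file headers, 9.1 per the submitters' processing notes), background corrected but not scaled between arrays; the array design used mm9, per the file headers. Levels were computed here as log2 of the deposited values, that is log2 of the processed intensity minus the array's 75th percentile (550 to 647); 100 to 122 outlier spots per array were left out. Accessions were matched to RefSeq symbols: 26413 of 55681 probes matched 1 symbol. The probe with the highest mean stood for a gene, and other probes are given where they differ in direction or call. Genes flagged well above background throughout some group were tested (25055 of 37153 genes and features). limma 3.58.1 (R 4.3.3) fitted all 3 groups together (3 residual degrees of freedom), two-sided, adjusted by Benjamini-Hochberg; MDSC is the mean of the genotypes. p-values measure the spread between isolations or passages.

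Members and gene lists were chosen with earlier results of these data known, so they are no independent support. Full statistics are given for members past the threshold in a comparison or at background in 1 group, and the examples named from other lists were picked with their values known. Isolation numbers were not taken as pairs: over genes, same-numbered isolations deviated from their group means with r = -0.40. The steps were tested on simulated data. Alternatives were other scalings, background correction, filters, probe rules, variance models, subsets of arrays and, added after seeing the data, crossed isolation numbers and a fit over all probes. The values of 1 gene of the receptor list are not reported here.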

Additional observations from a re-analysis of the deposited data

How the results depend on the processing

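The count of higher ligands in MDSC versus ESC was 13 to 18 with 1 array left out and 18 to 21 in other settings, except 11 of 15 when only genes well above background on all 6 arrays were tested; that filter gave 9 for WT and 10 for Mstn-null MDSC versus ESC, since fewer genes were tested. With 1 array left out these were 10 to 14 and 12 to 17. The mean over probes gave 1 lower ligand, Ccl25, in MDSC (-0.98) and in Mstn-null MDSC (-1.46), and reversed it in WT (-0.50). Of the 19 calls in MDSC versus ESC, 11 held without each array and in every setting that tested the gene, and 8 were lost in some. Among the 11 are Ccl4, Ccl6, Ccl9, Ccl11 and Cxcl3, which the filter on all 6 arrays left untested. Ccl19, near 0 throughout, changed sign with quantile normalization (0.071, Mstn-null), median centring (0.0126 pooled, 0.16 Mstn-null), normexp (0.0072 and 0.0803) and the mean over probes (0.26 pooled, 0.40 WT, 0.12 Mstn-null, -0.28 Mstn-null versus WT), as did Ccl21b between genotypes with normexp (-0.0178); the cause was not tested. With 1 array left out, signs changed between genotypes for Ccl19 (range -0.0269 to 0.31), Ccl21b (-0.0214 to 0.0812), Cx3cl1 (-0.51 to 0.0347) and Cxcl3 (-0.21 to 0.66), in MDSC versus ESC for Ccl27a (-0.0137 to 0.11), and in WT versus ESC for Cxcl10 (-0.90 to 1.55) and Cxcl16 (-0.35 to 0.87). Median centring moved the all-gene median in MDSC versus ESC from -0.03 to 0.12 and raised the share of higher calls in Mstn-null versus ESC from 43.1% to 53.3%.

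With the isolation number as a replicate block, 0 ligands passed between genotypes, and 0 with the crossed pairing; the block changed no call. Over all genes, 25 passed between genotypes with quantile normalization and 8 probes in the fit over all probes, none a ligand. Probes at background limit ESC levels to bounds.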
